A study of Mus musculus with 2 samples.

Results

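The cells described here are thymic cells with high transcript counts of 4 effector genes of regulatory T (Treg) cells. The name describes those counts and not a proven lineage, since not every cell showed Foxp3 or Il2ra transcripts. They were chosen by a rule on the measured counts: at least 3 unique molecular identifiers (UMIs, each a counted RNA molecule) summed over Ctla4, Gpr83, Lrrc32 and Nrp1, and 0 UMIs of Mki67 and Top2a, genes of dividing cells. The rule was met by 549 of 4453 cells (12.3%, 95% Clopper-Pearson interval 11.4 to 13.3), which are called gate-high cells below; the remaining 3904 are the other cells. Both sets came from 1 capture of thymic cells from 2 C57BL/6 mice, 1 of each genotype. The control mouse carried Foxp3eGFP, a reporter that makes Foxp3-expressing cells fluoresce, and the other carried Foxp3eGFP and was Lta-/-, that is, deficient in lymphotoxin alpha. The reporter was thus common to both mice, and the labels name no treatment or age. CD8+ and CD11c+ cells were depleted, live CD4+CD8-CCR6-CD3e+ cells with CD25, eGFP or both were sorted, 20000 were taken per genotype, and the pools were told apart by hashtags, which are barcoded antibodies to CD45. Expression was measured by 10x Genomics 3' v3.1 single-cell sequencing. With 1 mouse per genotype there are no replicates: cells of 1 mouse are not replicates of each other, no p-value is given, and every interval covers counting error only.

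Treg cells restrain other T cells and depend on the transcription factor Foxp3 and on interleukin-2, which is received through CD25 (the product of Il2ra). They arise in the thymus from CD4 thymocytes that have met self antigen, and the thymus also holds older Treg cells that have come back from the periphery. The genes of the rule are part of the Treg effector equipment. Ctla4 encodes an inhibitory receptor that competes for the costimulatory ligands of antigen-presenting cells, Lrrc32 the surface anchor (GARP) of latent TGF-beta, Nrp1 a semaphorin co-receptor carried by many thymus-derived Treg cells, and Gpr83 a G protein-coupled receptor found on Treg cells.

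The matrix held 4798 barcodes, all different, and 32285 genes. Of these, 4638 had 500 genes or more and no more than 10% of their UMIs from mitochondrial genes, and 4453 of them carried 1 hashtag at 80% or more of their hashtag counts, 2209 from the Foxp3eGFP mouse and 2244 from the Lta-/- mouse. Median depth was 5431 UMIs in gate-high cells, 5473.5 in other cells and 5170 in other cells without Mki67 or Top2a UMIs. Among all cells without those UMIs it was 5143 with 0 summed gate UMIs and 5253 with 3. It was 5739.5 with 5 to 6 and 6972 with 10 or more, so cells with many gate UMIs were deeper. The gate-high cells summed to 1634355 UMIs in the Foxp3eGFP mouse and 1638973 in the Lta-/- mouse. The targeted gene followed the hashtags. Lta had 150 UMIs in the gate-high cells labelled Foxp3eGFP and 14 in those labelled Lta-/-. Since counts come from the 3' end of transcripts, and the labels do not say which part of Lta is deleted, the remaining UMIs do not measure intact Lta.

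The gate itself is described first, with no comparison drawn from it, because it chose the cells. Among cells without Mki67 or Top2a UMIs, 2300 had 0 summed gate UMIs, 651 had 1, 300 had 2, 200 had 3, 137 had 4 and 89 had 5, so cell numbers decreased steadily with no gap at the threshold. The gate-high cells had a median of 4 gate UMIs and a highest value of 20. Ctla4 was detected in 366 of the 549 cells, Gpr83 in 283, Nrp1 in 270 and Lrrc32 in 198. A single gate gene supplied all the gate UMIs in 135 cells, 2 genes in 273, 3 genes in 128 and all 4 in 13. The 4 genes were therefore seldom seen together in 1 cell at this depth. A further 95 of 644 cells with 3 or more gate UMIs were left out because they had Mki67 or Top2a UMIs.

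The label was checked against Foxp3, Il2ra and Rgs1, which the rule did not use. Levels are CPM, the summed UMIs of a gene per 1000000 UMIs of the same cells, given for the Foxp3eGFP mouse first and the Lta-/- mouse second, and a log2 ratio compares 2 such levels with the 95% interval after it. Foxp3 was at 172 and 142 CPM in gate-high cells against 40.7 and 35.9 CPM in other cells, and the log2 ratio over both mice was 2.03 (1.87 to 2.19). Il2ra was at 330.4 and 249.6 CPM in gate-high cells against 65.9 and 49.0 CPM in other cells, with a log2 ratio of 2.33 (2.21 to 2.45). Rgs1, which encodes an inhibitor of G protein signalling from chemokine receptors, was at 338 and 335 CPM in gate-high cells against 58.2 and 57.1 CPM in other cells, with a log2 ratio of 2.54 (2.43 to 2.66). All 3 markers were thus higher in the gate-high cells of each mouse. Not every gate-high cell showed them: a Foxp3 UMI was found in 265 of 549 gate-high cells (48.3%, 44.0 to 52.5) and an Il2ra UMI in 323 (58.8%, 54.6 to 63.0), against 15.9% and 16.7% of the other cells. In other cells with 2 or more UMIs of Ccr9, a homing receptor of immature thymocytes, 7.17% had a Foxp3 UMI and 8.78% an Il2ra UMI, at a median depth of 5794.5 UMIs. Those cells passed the same sort, so their shares may hold true expression, and the share from free RNA was not measured.

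Together, Foxp3 and Il2ra divided the gate-high cells into 4 classes. Both transcripts were present in 172 cells (31.3%), Foxp3 without Il2ra in 93 (16.9%), Il2ra without Foxp3 in 151 (27.5%) and neither in 133 (24.2%, 20.7 to 28.0). In the other cells neither transcript was seen in 73.0%. When each cell was thinned to 3000 UMIs and gated again, 104 of 262 gate-high cells (39.7%) had a Foxp3 UMI and 126 (48.1%) an Il2ra UMI, against 12.2% and 13.2% of the other cells. All 4 shares were smaller at the lower depth, and those of gate-high cells stayed above those of the other cells. A cell without a Foxp3 UMI at this depth may still transcribe Foxp3. The share with a Foxp3 UMI was 31.9% (24.1 to 40.4) in the cells with 1 gate gene detected, 47.6% (41.6 to 53.7) with 2 and 64.1% (55.1 to 72.3) with 3, at median depths of 5347, 5413 and 5545.5 UMIs.

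**Figure D1:**
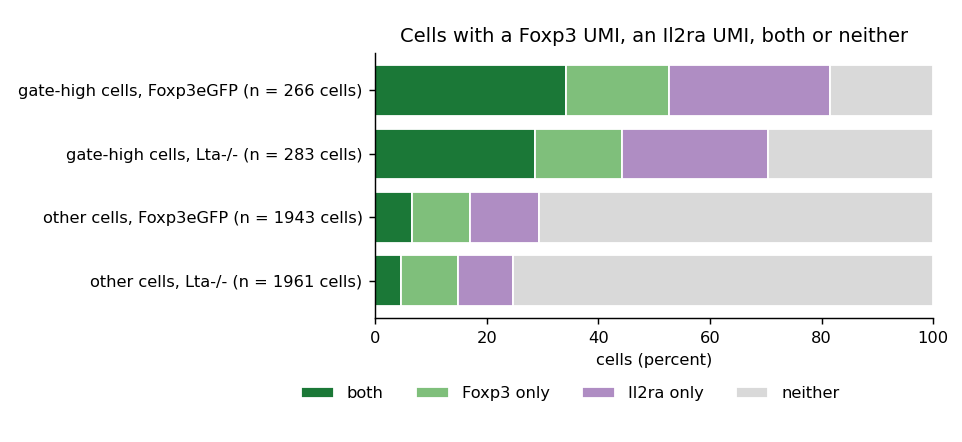
Bars give the percent of cells with a Foxp3 UMI, an Il2ra UMI, both or neither, for gate-high and other cells of each mouse. Cells with neither transcript made up 18.4% and 29.7% of the gate-high bars, and 70.7% and 75.3% of the bars of the other cells.

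Genes outside the gate were also compared across cells ordered by their summed gate UMIs, among cells without Mki67 or Top2a UMIs. Foxp3 was at 29.6 CPM in cells with 0 gate UMIs, 63.0 with 1, 119 with 2, 124 with 3, 162 with 4 and 173 with 5 to 6. Just outside and just inside the threshold, at 2 and 3 gate UMIs, Foxp3 was therefore nearly level, whereas Rgs1 was at 154 and 244 CPM and Il2ra at 123 and 175 CPM. Socs2, an inhibitor of cytokine signalling, was at 3.84 CPM with 0 gate UMIs, 17.8 with 2 and 62.8 with 5 to 6. In the opposite direction, Sox4, a transcription factor of immature thymocytes, was at 323 CPM with 0 gate UMIs, 199.7 with 2, 123 with 3 and 92.4 with 5 to 6. Ccr9 was at 134, 90.7, 68.2 and 41.1 CPM in the same classes. The levels thus moved in steps on both sides of the threshold. They did not all go on to the highest class, of 17 cells with 10 or more gate UMIs, in which Rgs1 was at 186 CPM and Il2ra at 575 CPM.

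**Figure D2:**
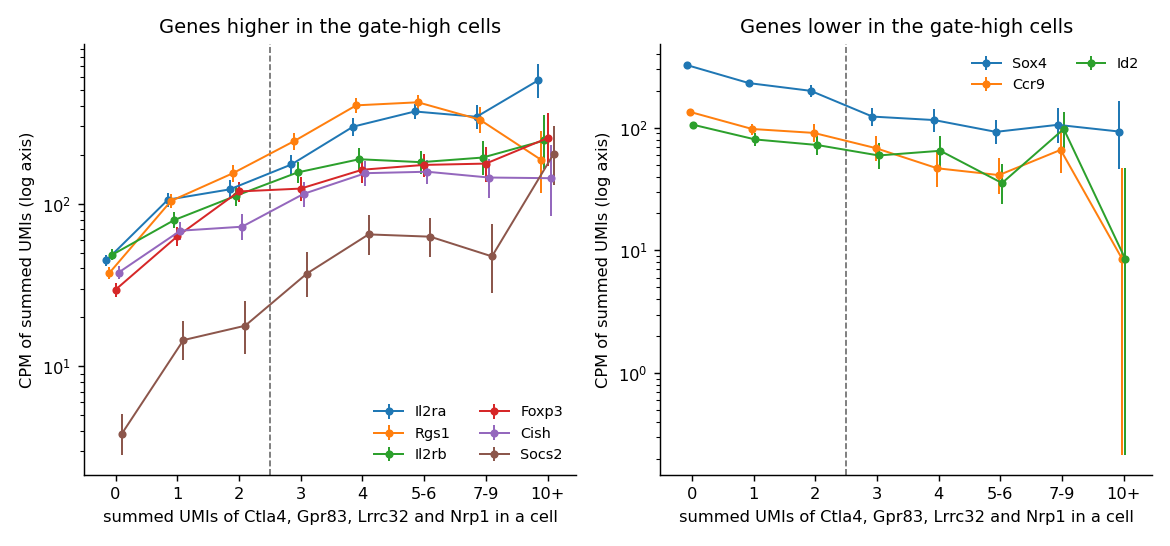
Each point is the CPM (log axis) of 1 gene over all cells with the given number of summed gate UMIs, among cells without Mki67 or Top2a UMIs; bars are exact 95% Poisson intervals and the dashed line is the threshold. Foxp3, Il2ra, Rgs1 and Socs2 were higher and Sox4 and Ccr9 lower in the classes of 3, 4 and 5 to 6 gate UMIs than in the class with 0.

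Against the other cells, with the gate genes left out, 764 of 10703 genes with at least 50 UMIs were at least 1.5-fold higher in gate-high cells (7.14%) and 1506 were at least 1.5-fold lower (14.1%). Because the rule removed cells with Mki67 or Top2a UMIs, many of the lower genes are those of dividing cells. Against the 3251 other cells that also lacked those UMIs, 578 of 10111 genes were higher (5.72%) and 848 lower (8.39%). A gene or list member is called higher or lower below only at a ratio of 1.5 with 50 UMIs. Where the other cells are named without a limit, they include those with Mki67 or Top2a UMIs. Within the Foxp3eGFP mouse 7.64% of 9678 genes were higher and 15.2% lower, and within the Lta-/- mouse 6.88% and 14.9% of 9646. In the 2 mice taken apart, 1100 genes passed that ratio in both mice in the same direction. In opposite directions 41 did, with mitochondrial, ribosomal, unnamed, sex-linked marker and receptor-segment genes left out. The first count kept those genes, and also genes of dividing cells, which the rule removed in both mice. The 2 counts are therefore not compared, and the genes tested in both mice were not counted.

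The list of core Treg genes stood highest. Of its 15 measured members, 13 were higher and 0 lower, and its summed level was 1.07 log2 units higher (1.04 to 1.09); the median over members was 1.36, against -0.07 over all genes tested. Beside Foxp3, Il2ra and Rgs1, these were Socs2, Il2rb, Ikzf2, Ikzf4, Tnfrsf18, Tnfrsf4, Izumo1r, Entpd1, Capg and Itgb8. Several of them, Il2ra, Tnfrsf18 and Itgb8 included, also belong to lists below, so the counts of different lists are not independent. The core list summed to 4586 CPM in gate-high cells, 2188 in other cells and 2459.5 in other cells without Mki67 or Top2a UMIs. Dividing cells in the reference thus enlarged its ratio. Ikzf2, which encodes the Treg transcription factor Helios, was at 1177 and 1301 CPM in gate-high cells against 792 and 706 CPM in other cells (0.72, 0.67 to 0.77). Among cells without Mki67 or Top2a UMIs the gap was narrower. There Ikzf2 was at 836 CPM with 0 gate UMIs, 960 with 1, 1015 with 2 and 1147.5 with 3. Ikzf4, which encodes the related factor Eos, was at 187 and 157 CPM in gate-high cells against 72.4 and 61.2 CPM in other cells. Izumo1r, the folate receptor 4 gene used as a Treg marker, had a log2 ratio of 1.18 (1.09 to 1.26). Tnfrsf18 (GITR) and Tnfrsf4 (OX40), costimulatory receptors of Treg cells and their thymic precursors, had ratios of 1.00 (0.92 to 1.07) and 0.93 (0.86 to 0.99). Icos, a costimulatory receptor, was level at -0.03 (-0.21 to 0.14). Ikzf2 was detected in 87.6% of gate-high cells and in 56.4% of the other cells, so it was widespread in both, while Rgs1 was detected in 52.8% and 15.2%.

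Interleukin-2 acts through the receptor chains Il2ra, Il2rb and Il2rg and the transcription factor STAT5, whose targets include feedback inhibitors. Of 16 measured members, 9 were higher and 0 lower, and the summed level was 0.71 log2 units higher (0.68 to 0.73). That level was 3481.5 CPM in gate-high cells, 2135 in other cells and 2304.6 in other cells without Mki67 or Top2a UMIs. The receptor's beta chain Il2rb was at 202 and 153 CPM in gate-high cells against 59.4 and 54.3 CPM in other cells, whereas the common gamma chain Il2rg was level (-0.03, -0.12 to 0.07). The kinase genes Jak1 and Jak3 had ratios of 0.18 and -0.12, and Stat5a and Stat5b of 0.44 and 0.37, all below the 1.5-fold limit. The 9 higher members included the receptor chains Il2ra and Il2rb, feedback inhibitors and survival genes. Socs2 had the largest ratio among genes with at least 100 UMIs and 50 CPM, at 56.3 and 59.2 CPM in gate-high cells against 6.50 and 8.94 CPM in other cells (2.91, 2.62 to 3.21). Cish, an inhibitor of receptor-proximal STAT5 signalling, was at 166 and 115 CPM in gate-high cells against 46.9 and 34.8 CPM in other cells (1.77, 1.61 to 1.93). Socs1 and Socs3 had ratios of 1.05 (0.93 to 1.16) and 1.25 (0.90 to 1.58), the kinase gene Pim1 of 1.46 (1.33 to 1.59) and the anti-apoptotic gene Bcl2 of 0.97 (0.90 to 1.04). Pim2 did not share the direction of Pim1, at -0.47 (-1.17 to 0.16).

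**Figure D3:**
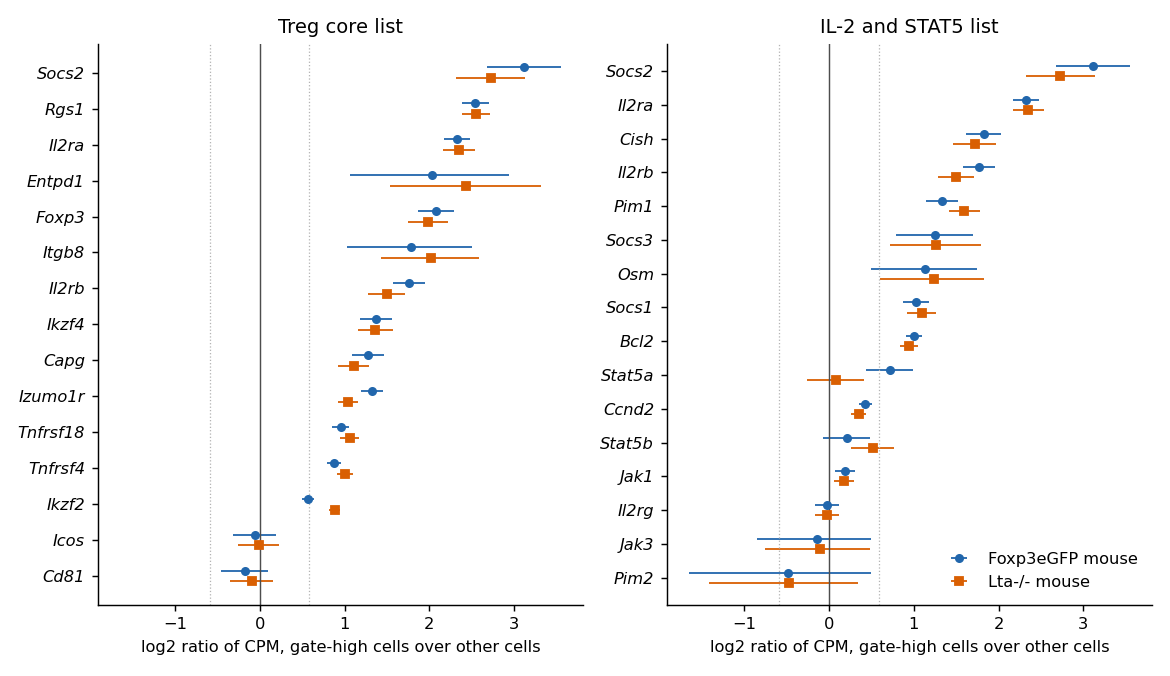
Points are log2 ratios of CPM, gate-high over other cells, in each mouse for the list members with at least 50 UMIs; bars are exact 95% intervals of counting error and dotted lines mark 1.5-fold. Socs2, Rgs1, Il2ra, Foxp3, Cish and Il2rb lie to the right of the 1.5-fold line in both mice, and Icos, Il2rg and Jak1 lie near 0.

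Since 9 of 16 genes of the list were higher, their RefSeq promoters (build GRCm38.p6, 250 bases before to 50 after each annotated start) were searched for TTCNNNGAA, the STAT5 recognition motif, which reads the same on both strands. The table held 15 promoters of 12 of the 16 list genes, and 2 of the 15 held the motif (13.3%), against 2726 of 32851 promoters of all genes (8.30%). The share is a description of letters in this window, not of binding. The windows below show the promoters that held it, Cish from 60 bases before its start site at chr9:107296599-107296678 (+ strand) and Socs3 from 200 bases before at chr11:117969467-117969566 (- strand); capitals mark the motif.
Cish: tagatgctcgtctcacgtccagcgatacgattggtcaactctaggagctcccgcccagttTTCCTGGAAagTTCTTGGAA
Socs3: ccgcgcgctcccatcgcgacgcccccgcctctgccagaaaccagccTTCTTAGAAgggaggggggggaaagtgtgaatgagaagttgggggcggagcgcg
Cish held 2 copies, beginning 0 and 11 bases from the start site, and 150 of all promoters (0.457%) held 2 or more. Socs3 held 1 copy, 154 bases before the start site.

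Of 12 measured suppressive mediators 8 were higher and 0 lower, with a summed log2 ratio of 0.40 (0.32 to 0.48). Nt5e and Entpd1 encode CD73 and CD39, the ectoenzymes that turn extracellular ATP into adenosine. Nt5e was at 78.3 and 65.9 CPM in gate-high cells against 20.04 and 17.2 CPM in other cells (1.95, 1.72 to 2.18). Entpd1 rested on 36 UMIs in gate-high cells and 60 in the others, with a ratio of 2.24 (1.60 to 2.86). Lag3, Ebi3, Fgl2 and Areg were also higher, each on fewer than 100 UMIs in either set. Of 14 measured genes of TGF-beta activation and signalling, 5 were higher and 1 lower. Itgb8, whose integrin frees active TGF-beta from the latent form held by GARP, was at 14.7 and 24.4 CPM in gate-high cells against 4.26 and 6.04 CPM in other cells (1.93, 1.48 to 2.38), and the receptor gene Tgfbr1 had a ratio of 1.03 (0.87 to 1.19). The cytokine gene itself, Tgfb1, was level at 0.03 (-0.11 to 0.16).

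In the list of TNF receptors, which deliver costimulation to developing Treg cells, and NF-kB genes, 5 of 21 measured were higher and 0 lower, with a summed log2 ratio of 0.53 (0.50 to 0.56). Its sum was 3210 CPM in gate-high cells, 2219 in other cells and 2551 in other cells without Mki67 or Top2a UMIs. The higher receptor genes were Tnfrsf18 and Tnfrsf4, and the others were Rel, Nfkbiz and Traf1; Rel encodes an NF-kB subunit required for Treg development and had a ratio of 0.73 (0.62 to 0.84). Tnfrsf9 (4-1BB) had a ratio of -0.43 (-0.57 to -0.29). Among 9 measured lymphotoxin and TNF ligands, 4 were higher and 3 lower. Lta was at 91.8 CPM in the gate-high cells of the Foxp3eGFP mouse and 26.8 CPM in its other cells, a log2 ratio of 1.77 (1.49 to 2.05). Ltb, whose product joins lymphotoxin alpha in the membrane-bound trimer, was at 1115 and 1072 CPM in gate-high cells against 649 and 624 CPM in other cells. Tnfsf8, the CD30 ligand gene, had a ratio of 1.01 (0.78 to 1.23), while the lower members were Cd40lg (-1.05, -1.34 to -0.77), Tnfsf11 (-0.74, -1.16 to -0.35) and Tnfsf4, which had 4 UMIs in gate-high cells.

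Genes induced by T cell receptor signalling were split. Of 21 measured, 4 were higher (Nr4a2, Egr2, Egr3 and Rel) and 1 lower (Bcl2l11), and the summed log2 ratio was 0.12 (0.09 to 0.16). Against other cells without Mki67 or Top2a UMIs, 2 were higher and 2 lower and the summed ratio was -0.04, so the list as a whole had no firm direction. Bcl2l11, which encodes the pro-apoptotic protein BIM, was at 57.5 and 46.4 CPM in gate-high cells against 95.9 and 91.6 CPM in other cells (-0.85, -1.09 to -0.63). Nr4a1 (Nur77), a fast target of the receptor, was at 47.1 and 83.6 CPM in gate-high cells against 54.6 and 48.1 CPM in other cells, so its ratio was -0.21 (-0.57 to 0.13) in the Foxp3eGFP mouse and 0.80 (0.52 to 1.07) in the Lta-/- mouse. Some of these genes also respond to handling of tissue. In a list of 11 measured dissociation stress genes, 4 were higher and 1 lower, with Jun at 36.1 and 62.8 CPM in gate-high cells against 8.90 and 14.0 CPM in other cells (2.12, 1.84 to 2.40) and Fos at 1.28 (0.84 to 1.70). The summed log2 ratio of that list was 0.03, and the part of handling in the result was not tested.

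Of 19 measured genes of maturation and egress, 4 were higher (S1pr1, Klf3, H2-Q7 and Gimap3) and 0 lower, with a summed log2 ratio of 0.42 (0.41 to 0.44). S1pr1, the sphingosine 1-phosphate receptor by which thymocytes leave the thymus, was at 384 and 365 CPM in gate-high cells against 202 and 205 CPM in other cells (0.88, 0.79 to 0.97). Klf2, the transcription factor that drives S1pr1, had a ratio of 0.45 (0.39 to 0.51), Ccr7 of -0.05 (-0.15 to 0.06) and Il7r of -0.50 (-0.63 to -0.37), none of them past 1.5-fold. Of 11 measured genes of immature CD4 thymocytes, 8 were lower and 0 higher, and the summed log2 ratio was -0.91 (-0.97 to -0.85). Sox4 was at 119 and 101 CPM in gate-high cells against 257 and 247 CPM in other cells (-1.20, -1.36 to -1.05), Ccr9 at 51.4 and 55.5 CPM in gate-high cells against 95.8 and 121 CPM in other cells (-1.01, -1.24 to -0.79) and the chromatin organizer Satb1 at 454 and 441 CPM in gate-high cells against 772 and 814 CPM in other cells (-0.82, -0.90 to -0.75). Cd24a, a surface marker lost as thymocytes mature, had 21 UMIs in gate-high cells against 737 in the others (-2.16, -2.86 to -1.53).

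Of 22 measured lineage transcription factors, 4 were higher and 5 lower. The higher members were Foxp3, Ikzf2, Ikzf4 and Maf, a factor of effector T cells at 37.9 and 78.1 CPM in gate-high cells against 19.9 and 28.0 CPM in other cells (1.29, 1.04 to 1.52). Against other cells without Mki67 or Top2a UMIs, Ikzf2 was below 1.5-fold. The lower ones were Tcf7 (-0.92, -1.01 to -0.83) and Satb1, factors of naive and immature T cells, and Runx3 (-0.96, -1.32 to -0.63), Eomes (-0.79, -1.69 to -0.01) and Id2 (-0.92, -1.14 to -0.71), factors of cytotoxic and innate lymphocytes. The list of effector Treg genes was mixed: 6 of 19 measured were higher, 3 lower, and the summed log2 ratio was 0.15 (0.11 to 0.18). Against other cells without Mki67 or Top2a UMIs it was 0.50 (0.46 to 0.53), with 7 of 16 higher and 3 lower. The mice differed in this list: its sum was 1817 CPM in gate-high and 1845 CPM in other cells of the Foxp3eGFP mouse (-0.02, -0.08 to 0.03), and 2314 and 1887 CPM in the Lta-/- mouse (0.29, 0.24 to 0.34). That difference was not tested. Higher members included Itgb1, the integrin beta 1 gene, at 0.99 (0.86 to 1.11), Itgae, the CD103 gene, at 1.39 (0.89 to 1.87), and Il1rl1, the interleukin-33 receptor gene, on 27 and 41 UMIs. The lower members were Id2 and the chemokine receptors Ccr8 (-1.20, -2.22 to -0.33) and Ccr4 (-0.79, -1.59 to -0.08). The effector list was thus higher in some members and lower in others.

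Of 8 measured chemokine receptors, 2 were higher and 4 lower. Ccr6 was higher (1.65, 1.06 to 2.21), on 37 UMIs in 31 gate-high cells and 93 UMIs in 74 others, although the sort took cells without surface CCR6. Cxcr3 had a ratio of 0.68 (0.22 to 1.11), and Ccr9, Ccr8, Ccr4 and Cxcr4 were the lower ones. Interferon response genes had a summed log2 ratio of 0.35 (0.33 to 0.37), with 1 of 21 higher (Ifit3, 0.70) and 0 lower. Of 8 measured regulators of G protein signalling only Rgs1 passed 1.5-fold: Rgs16 was level at 0.07 (-0.22 to 0.36), and Rgs10 was at 773 and 757 CPM in gate-high cells against 739 and 793 CPM in other cells. In survival and death genes, Bcl2, Mcl1 (0.62, 0.54 to 0.70) and Casp8 (0.72, 0.59 to 0.85) were higher and Bcl2l11 lower of 14 measured.

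The genes with the largest ratios overall were Socs2, Rgs1, Coro2a, Il2ra, Foxp3, Nt5e, Ttc39b, Hopx, Ecm1, Cish, Cd55 and Mbnl3. Coro2a, a coronin family gene, was at 71.6 and 58.0 CPM in gate-high cells against 13.3 and 11.8 CPM in other cells (2.36, 2.11 to 2.62). Hopx, a homeobox-like gene needed by induced Treg cells, was at 249 and 143 CPM in gate-high cells against 58.8 and 54.0 CPM in other cells, with ratios of 2.08 (1.91 to 2.26) in the Foxp3eGFP mouse and 1.40 (1.18 to 1.62) in the Lta-/- mouse. Cd55, a brake on complement, was at 122 and 97.0 CPM in gate-high cells against 32.4 and 34.9 CPM in other cells. Ecm1, which encodes a secreted matrix protein, was at 114 and 132 CPM in gate-high cells against 33.9 and 38.2 CPM in other cells. Ttc39b was at 61.2 and 77.5 CPM in gate-high cells against 18.9 and 20.6 CPM in other cells, and Mbnl3, a splicing regulator gene, at 59.4 and 67.1 CPM in gate-high cells against 20.1 and 19.6 CPM in other cells. In all 12 the level in gate-high cells of either mouse was above that of the other cells of either mouse.

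The genes with the lowest ratios were those of cell division, which the rule itself removed, and of cells outside the T lineage. All 18 proliferation genes were lower, among them Pclaf (-6.15, -7.21 to -5.27) and Birc5 (-6.10, -7.55 to -4.98). Against other cells without Mki67 or Top2a UMIs, 3 of 15 measured were lower and 1 higher, so nothing is read from the first count. In that comparison the lowest genes outside the immunoglobulin genes and Lyz2 were Marcksl1 (-1.83, -2.23 to -1.45), the antigen-presentation gene Cd74 (-1.72, -2.02 to -1.44), Ckb (-1.52, -1.80 to -1.25), Sox4 (-1.41, -1.57 to -1.26), Marcks (-1.37, -1.71 to -1.05), Nrgn (-1.36, -1.64 to -1.09), Stmn1 (-1.28, -1.45 to -1.12), Tesc (-1.27, -1.45 to -1.09) and Gsn (-1.24, -1.59 to -0.91). The immunoglobulin genes and Lyz2 lay lower still, from few cells: 3593 of the 3598 Iglc2 UMIs of the other cells were in 7 cells of the Foxp3eGFP mouse, and 1336 Lyz2 UMIs were in 38 other cells against 0 in gate-high cells. The ratio of Iglc2 turned to 10.4 when Mki67 and Top2a were not used in the rule, which moved cells into the gate. Marker lists of other cell types were all detected in gate-high cells, most of them below their level in the other cells. Double-positive thymocyte markers summed to 38.8 CPM against 120.0 in the other cells and 71.5 in those without Mki67 or Top2a UMIs. Of these 9 markers 4 were at 0 UMIs in gate-high cells, Rag1 and Ptcra among them. Natural killer or innate lymphoid markers were at 25.7 CPM against 90.5 and 74.5, with 4 of 9 at 0, including Klrd1. Gamma-delta markers were at 23.2 CPM against 63.2 and 37.2. Macrophage or dendritic markers were at 159 CPM against 320.0 and 330, with 4 of 12 at 0, including Lyz2. Plasma cell markers were at 48.3 CPM in gate-high and 479.8 CPM in other cells of the Foxp3eGFP mouse, but at 53.7 and 38.4 CPM in the Lta-/- mouse. B cell markers were at 11.9 against 6.98 CPM and thymic epithelial markers at 13.1 against 11.2, and within the B cell list Cd79b was higher (1.39, 0.79 to 1.97), on 34 and 102 UMIs. The 9 CD4 T lineage markers were all detected and summed to 7684 CPM in gate-high and 8907 CPM in other cells. The part of other cell types in the ratios above was not tested.

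Gate-high cells were first compared with the 622 other cells that had a Foxp3 UMI. Against these 205 of 8211 genes were higher in gate-high cells (2.5%) and 304 lower (3.7%), and against those without Mki67 or Top2a UMIs 264 of 7819 were higher (3.38%) and 150 lower (1.92%). In the second of these comparisons 7 of 14 measured effector Treg genes were higher and 0 lower, among them Itgb1 (1.62, 1.38 to 1.86), Maf (1.36, 0.94 to 1.80) and Id2 (1.31, 0.89 to 1.75), and 6 of 14 core Treg genes were higher and 1 lower, Foxp3 (-0.95, -1.11 to -0.79), which chose only the other cells. To compare like with like, the 265 gate-high cells with a Foxp3 UMI were set against other cells with a Foxp3 UMI and no Mki67 or Top2a UMIs. Here 251 of 7057 genes were higher (3.56%) and 187 lower (2.65%). Of 14 measured core Treg genes, 7 were higher and 0 lower: Socs2 (2.14, 1.61 to 2.71), Rgs1 (1.14, 0.97 to 1.31), Il2ra (1.13, 0.95 to 1.32), Itgb8 (0.99), Capg (0.85), Il2rb (0.68) and Izumo1r (0.66). Foxp3 itself, which chose both sets, had a ratio of 0.05, and nothing is read from it. Of 12 measured effector Treg genes, 3 were higher (Itgb1, 1.28, S100a6, 0.81, and Maf, 0.70) and 0 lower, and Id2 had a ratio of 0.13 (-0.48 to 0.72). Of 19 measured maturation genes 0 were higher and 0 lower. Of 19 measured T cell receptor signal genes 6 were higher, among them Myc (0.96, 0.57 to 1.36) and Nfkbid (0.70, 0.14 to 1.26), and 0 lower. Of 15 measured interleukin-2 pathway genes 5 were higher, with Pim1 at 1.00 (0.78 to 1.21) and Cish at 0.71 (0.45 to 0.97), and 1 was lower (Jak3, -0.89). Ccl5, a chemokine gene of memory and cytotoxic T cells, had the largest ratio among genes with at least 100 UMIs and 50 CPM (2.66, 2.03 to 3.33), from 103 UMIs in 14 cells. The antigen-presentation gene Cd74 was the lowest of that set (-2.37, -2.84 to -1.93), followed by Sox4 (-0.75, -1.02 to -0.49).

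Against the 651 other cells with an Il2ra UMI, 521 of 8566 genes were higher in gate-high cells (6.08%) and 1044 lower (12.2%). Without cells that had Mki67 or Top2a UMIs, 501 of 8101 genes were higher (6.18%) and 765 lower (9.44%). Of 21 measured T cell receptor signal genes 10 were lower and 1 higher, a summed log2 ratio of -0.54 (-0.58 to -0.50). Gadd45b (-2.0, -2.25 to -1.76), Bcl2l11 (-1.74, -2.0 to -1.5), Tnfrsf9 (-1.55, -1.70 to -1.40) and Nr4a3 (-1.43, -1.76 to -1.11) were among the lower ones, and Egr1 (1.03, 0.76 to 1.31) was the higher one. The anti-apoptotic genes Bcl2l1 (-1.55), Bcl2a1b (-1.41) and Bcl2a1d (-1.94) were lower too; Bcl2a1b and Bcl2a1d are near-identical copies whose reads may be split between them. Of 19 measured maturation genes, 5 were higher, including Il7r (1.37, 1.14 to 1.60) and S1pr1 (0.74, 0.61 to 0.87), and 0 lower. Effector Treg genes were higher for 8 of 15 measured, led by S100a4 (2.11, 1.61 to 2.64), Maf (1.95, 1.49 to 2.43) and S100a6 (1.88, 1.51 to 2.27), and lower for Ccr4 and Srgn. Since 58.8% of gate-high cells had an Il2ra UMI, these 323 cells were also compared with other cells that had an Il2ra UMI and no Mki67 or Top2a UMIs. Of 7546 genes, 6.1% were higher and 10.1% lower. T cell receptor signal genes were lower for 9 of 21 measured and higher for 1, a summed log2 ratio of -0.44 (-0.49 to -0.39), with Gadd45b at -1.58 and Egr1 at 1.20. Maturation genes were higher for 5 of 19, Il7r among them (0.91, 0.64 to 1.18), and lower for 0. Effector Treg genes were higher for 4 of 12, namely S100a4 (1.59), S100a6 (1.32), Maf (1.30, 0.77 to 1.85) and Itgb1 (1.08), and lower for 0.

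The gate-high cells were not uniform. Gate-high cells with and without a Foxp3 UMI differed by 1.5-fold in 180 of 6320 genes in the direction of the Foxp3-positive cells (2.85%) and in 164 in the other (2.59%). Foxp3, which made the split, is left aside. Genes higher with a Foxp3 UMI included Ccl5 (1.65, 1.07 to 2.26), again from 14 and 15 cells, the glutathione transferase gene Gsta4 (1.1, 0.84 to 1.37) and Itih5 (0.82, 0.45 to 1.21). Id2, Maf, Il7r and Cd40lg were higher without a Foxp3 UMI. Id2 was at 25.1 CPM with and 88.5 CPM without a Foxp3 UMI (-1.82, -2.36 to -1.31), Maf at 36.7 and 79.3 (-1.11, -1.58 to -0.66), the interleukin-7 receptor gene Il7r at 111 and 225 (-1.02, -1.28 to -0.76), and Cd40lg, a helper T cell ligand, at 19.6 and 47.6 (-1.28, -1.92 to -0.67). The chemokine gene Xcl1 had the lowest ratio (-2.88, -3.64 to -2.20), but its 168 UMIs came from 12 cells. Of 13 measured effector Treg genes 5 were lower with a Foxp3 UMI (Id2, Maf, S100a4, S100a6 and Itgb1) and 0 higher. Core Treg genes were higher for 2 of 14, namely Foxp3 and Il2ra (0.59, 0.40 to 0.78), so the rest of that list passed 1.5-fold in neither direction.

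**Figure D4:**
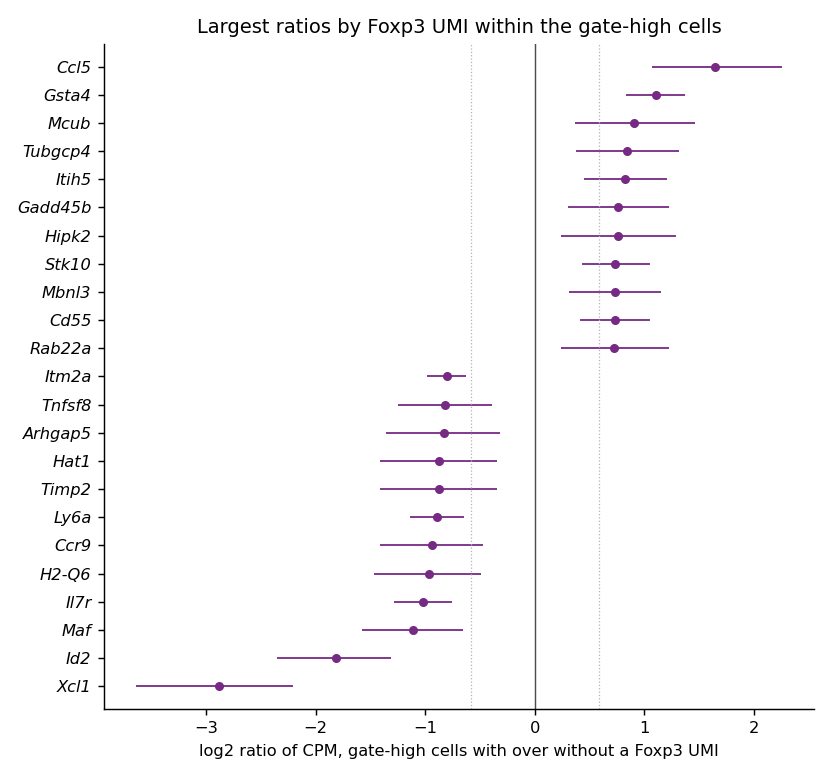
Points are log2 ratios of CPM in gate-high cells with over without a Foxp3 UMI for the genes with the largest ratios in each direction, Foxp3 left out; bars are exact 95% intervals and dotted lines mark 1.5-fold. Xcl1, Id2, Maf and Il7r lie farthest to the left and Ccl5 and Gsta4 farthest to the right.

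The 4 transcript classes refined this. In the 133 gate-high cells with neither Foxp3 nor Il2ra UMIs, Id2 was at 142 CPM, Maf at 114, Il7r at 332, Itgb1 at 320.3 and Cd40lg at 59.8. In the 172 cells with both, the same genes were at 29.7, 26.9, 113, 129.8 and 21.3 CPM. Rgs1 was at 501 CPM with both transcripts, 380.2 with Il2ra alone, 184 with Foxp3 alone and 162 with neither, so the classes with an Il2ra UMI were the higher ones. Socs2 was ordered the same way, at 82.5, 73.3, 32.4 and 22.6 CPM. Ikzf2 was highest with Foxp3 alone (1534 CPM) and at 1189, 1243 and 1088 CPM with both, Il2ra alone and neither. These values describe the cells, since 2 of the genes defined the classes.

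Gate-high cells made up 266 of 2209 cells of the Foxp3eGFP mouse (12.04%, 10.7 to 13.5) and 283 of 2244 of the Lta-/- mouse (12.6%, 11.3 to 14.1). After thinning to 3000 UMIs the shares were 6.26% and 6.39%, with 147 and 162 shallower cells left out. Of the 527 gate-high cells deep enough for thinning, 247 (46.9%, 42.5 to 51.2) passed the gate again, so membership of a single cell depended on the molecules sampled. A difference between the mice in the share of gate-high cells was not detectable at this depth, and 2 mice cannot separate genotype from mouse. A Foxp3 UMI was found in 52.6% (46.4 to 58.8) of gate-high cells of the Foxp3eGFP mouse and 44.2% (38.3 to 50.2) of the Lta-/- mouse. Cells with neither Foxp3 nor Il2ra made up 18.4% (14.0 to 23.6) and 29.7% (24.4 to 35.4). In the 129 and 133 gate-high cells chosen again from thinned counts these were 30.2% (22.5 to 38.9) and 36.8% (28.6 to 45.6). In the gate-high cells as first chosen, with transcripts thinned, they were 33.7% (27.9 to 39.9) of 252 and 43.3% (37.3 to 49.4) of 275. The intervals, apart before thinning, overlapped in both cases. Overlap does not show equal shares, and fewer cells give wider intervals.

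Between the mice, 212 of 6320 genes were at least 1.5-fold higher in Lta-/- gate-high cells (3.35%) and 194 lower (3.07%). In the other cells these shares were 2.5% and 2.81% of 10527 genes. Those cells held more UMIs (13376561 and 12415854), so counting noise carries fewer genes past 1.5-fold, and the shares are not compared. With a minimum of 100 UMIs the shares in gate-high cells were 1.34% and 1.36%, and with 20 they were 6.58% and 6.27%. Past 1.5-fold in both sets of cells were 31 genes in the same direction. In opposite directions there were 0, with mitochondrial, ribosomal, unnamed, sex-linked marker and receptor-segment genes left out, which the first count kept. Apart from Lta (-3.43, -4.33 to -2.63), the lowest was Penk, the proenkephalin gene of opioid peptides made by some Treg cells. It was at 103 CPM in gate-high cells of the Foxp3eGFP mouse and 20.1 CPM in those of the Lta-/- mouse (-2.35, -2.94 to -1.81), from 27 and 4 cells, and the ratio was -2.80 (-3.11 to -2.51) in the other cells. Nrip1, a nuclear receptor corepressor gene, was at 368 and 186 CPM (-0.99, -1.19 to -0.78), against -0.66 (-0.73 to -0.60) in the other cells. Ifi208, of the interferon-inducible p200 family, had ratios of -1.05 (-1.39 to -0.73) and -0.95 (-1.07 to -0.84). Hopx was at 249 and 143 CPM in gate-high cells (-0.80, -1.04 to -0.57) and level in the other cells (-0.12, -0.27 to 0.03); whether the 2 ratios differ was not tested.

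Higher in Lta-/- gate-high cells were Glo1 (1.43, 1.13 to 1.73), Dnah8 (1.34, 1.05 to 1.64), H2-Q7 (1.1, 0.94 to 1.27) and H2-Q6 (1.26, 0.76 to 1.77), with ratios of 1.36, 1.38, 0.86 and 0.80 in the other cells. All 4 lie on chromosome 17, which carries Lta at chr17:35203165-35205578 (RefSeq, GRCm38.p6): Glo1 4.61 Mb, Dnah8 4.58 Mb, H2-Q6 0.222 Mb and H2-Q7 0.236 Mb away. H2-M3, 2.07 Mb away, was lower (-0.90, -1.34 to -0.47). H2-Q6 and H2-Q7 are near-identical copies, so reads may be split between them. Of 140 tested genes within 10 Mb of Lta, 6 were higher and 4 lower (4.29% and 2.86%), against 3.22% and 2.87% of genes on all other chromosomes. Over the whole of chromosome 17 the counts were 16 and 20 of 324 genes (4.94% and 6.17%). An effect of the lost gene and one of linked sequence carried with it cannot be told apart here.

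Away from these genes, some T cell receptor signal and effector genes were higher in the Lta-/- gate-high cells. Of 18 measured T cell receptor signal genes, 5 were higher and 0 lower: Nr4a1 (0.83, 0.41 to 1.25), Egr2 (0.60, -0.14 to 1.36), Egr3 (1.27, 0.56 to 2.02), Cd69 (0.95, 0.66 to 1.25) and Nfkbid (0.89, 0.32 to 1.47). The interval of Egr2 included 0. The summed log2 ratio of the list was 0.14 (0.07 to 0.21), and in the other cells 0 of 21 measured passed 1.5-fold. Over all genes tested 3.35% were higher in gate-high cells and 2.5% in the other cells. The other cells held more UMIs, so the counts of 5 and 0 are not compared. Cd69, an early activation marker that holds T cells in tissue, was at 92.4 and 179 CPM in gate-high cells and 87.3 and 112 CPM in the other cells. The stress genes Fos (1.11, 0.29 to 1.97), Jun (0.80, 0.32 to 1.29) and Zfp36 (1.16, 0.67 to 1.66) were also higher, 3 of 10 measured, and their part in the result was not tested. Of 13 measured effector Treg genes 4 were higher and 0 lower: Itgb1, at 135 and 269.7 CPM (1.00, 0.77 to 1.24), Maf (1.04, 0.59 to 1.5), S100a11 (0.87, 0.54 to 1.21) and S100a6 (0.59, 0.23 to 0.95). The Maf ratio turned to -0.60 on 75 UMIs when 5 gate UMIs were asked for. Ahnak (1.27, 0.86 to 1.69), Eea1 (1.55, 0.91 to 2.22), Tnfsf8 (1.14, 0.70 to 1.59), Il7r (0.77, 0.51 to 1.02) and Cd40lg (0.86, 0.28 to 1.46) were higher as well. Maf, Il7r, Itgb1, Tnfsf8 and Cd40lg were also among the 164 of 6320 genes (2.59%) higher in gate-high cells without a Foxp3 UMI. Of the effector Treg genes in that set, Itgb1, Maf and S100a6 passed 1.5-fold between the mice, and Id2 and S100a4 did not. A Foxp3 UMI was found in 52.6% of the gate-high cells of the Foxp3eGFP mouse and in 44.2% of those of the Lta-/- mouse. The part of that difference in the ratios was not tested.

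In gate-high cells of the 2 mice, 1 gene of each of the core Treg and interleukin-2 lists passed 1.5-fold, and nothing is read from counts this small. Of 14 measured core genes, 1 was higher (Itgb8, 0.73, -0.03 to 1.53, on 40 and 24 UMIs) and 0 lower, with a summed ratio of -0.04. Foxp3 had a ratio of -0.27 (-0.53 to -0.02), Il2ra of -0.40 (-0.59 to -0.22), Ikzf2 of 0.15 (0.06 to 0.24) and Rgs1 of -0.01 (-0.19 to 0.16). Of 14 measured interleukin-2 pathway genes 1 was lower (Stat5a, -0.68, -1.09 to -0.27) and 0 higher, with a summed ratio of -0.20 (-0.26 to -0.15). Of 20 measured interferon response genes 2 were lower (Ifit3, -0.64, and Oasl2, -0.94) and 0 higher, with a summed ratio of -0.27 (-0.31 to -0.23). In the other cells 9 of 21 were lower and the summed ratio was -0.45 (-0.47 to -0.44), so the interferon list lay lower in both sets of cells from the Lta-/- mouse.

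**Figure D5:**
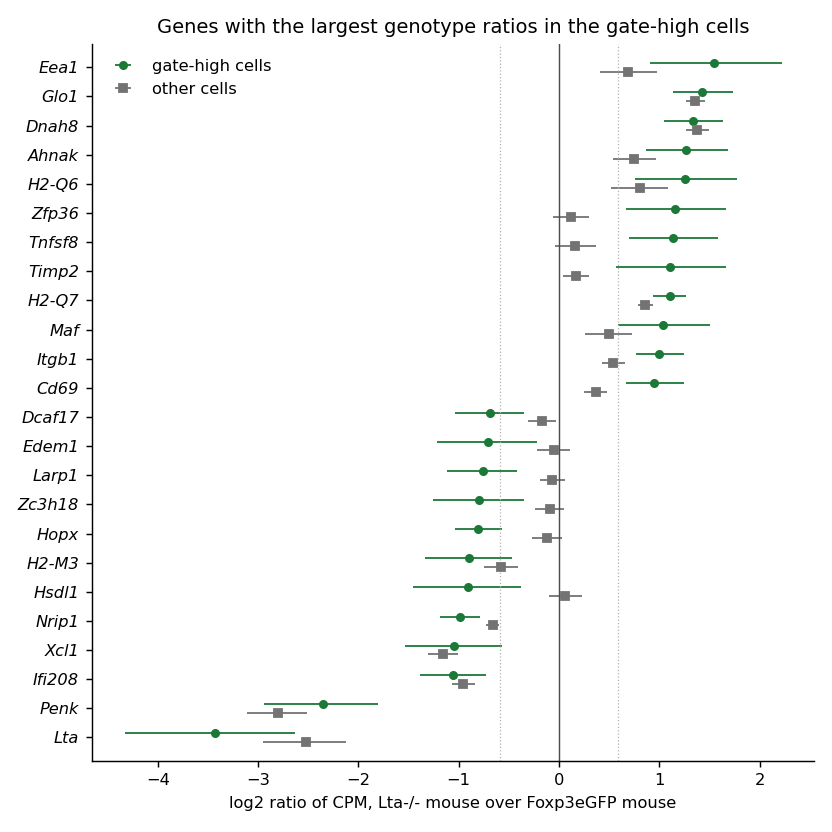
Points are log2 ratios of CPM, Lta-/- over Foxp3eGFP mouse, in gate-high cells and in other cells for the genes with the largest ratios in gate-high cells; bars are exact 95% intervals of counting error, 1 mouse per genotype, and dotted lines mark 1.5-fold. Glo1, Dnah8, Penk, Xcl1 and Ifi208 lie at like ratios in both sets, while Hopx and Zfp36 lie near 0 in the other cells.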

How the data were processed

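Single-cell mRNA and hashtag libraries of 1 capture were used. The deposited matrix holds raw UMI counts per gene or hashtag and cell, which the authors made with Cell Ranger 6.0.1 on the mm10 (GRCm38) mouse genome, per the submitters' processing notes. Each cell's mouse was taken from the names of the hashtag features, which number the antibodies differently from the labels' protocol. Cells with at least 500 genes, at most 10% mitochondrial counts and 1 hashtag at 80% or more of the hashtag counts were kept (depth: median 5431 UMIs in gate-high cells, 5473.5 in the others). A hashtag pair removed 185 cells, and no doublet caller was run. No per-sample column was left unused.

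Counts were summed per set of cells and divided by the sets' totals, and ratios carry exact conditional binomial intervals, levels Poisson intervals and shares Clopper-Pearson intervals, all at 95%; a count of 0 was set to 3 counts in ratios. UMIs of 1 mouse are not independent samples of a genotype, so no p-value was computed. A gene counts as higher or lower from 1.5-fold with at least 50 UMIs in both sets together. Genes were named by rule: the 12 largest ratios each way among those with at least 100 UMIs and 50 CPM in the higher set, without gate, mitochondrial, ribosomal, unnamed, sex-linked marker and receptor-segment genes, and members of 17 gene lists and 8 marker lists. The gate, the cells and the lists were chosen with earlier results of these data known. Some genes are not reported here and were left out of the lists. Ratios and intervals were tested on simulated data. Alternatives changed depth, gate, cell filters, hashtag share, weighting, the reference cells and the UMI minimum. Comparisons with other cells without Mki67 or Top2a UMIs, including those matched on a Foxp3 or an Il2ra UMI, were chosen after seeing the data. Python 3.11.15, numpy 2.4.6, scipy 1.17.1, pandas 2.3.3 and matplotlib 3.10.9 were used.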

Additional observations from a re-analysis of the deposited data

Results flagged for a closer look

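Spry1, which encodes a feedback inhibitor of receptor signalling, lay in opposite directions in the 2 mice when gate-high cells were set against other cells. The log2 ratio was 0.98 (0.33 to 1.59) in the Foxp3eGFP mouse, on 28 and 116 UMIs, and -0.60 (-1.86 to 0.44) in the Lta-/- mouse, on 8 and 92 UMIs. The difference was not tested, and the second interval includes 0. Spry1 was 1 of 41 genes past 1.5-fold in opposite directions, counted without mitochondrial, ribosomal, unnamed, sex-linked marker and receptor-segment genes. In the same direction 1100 genes passed it, counted with those genes and with genes of dividing cells. The genes tested were 9678 in the Foxp3eGFP mouse and 9646 in the Lta-/- mouse.

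Cells with 2 hashtags, which were left out of all comparisons, also met the gate: 36 of 185 (19.5%, 14.0 to 25.9), against 12.3% of the cells with 1 hashtag. Their median depth was 10532 UMIs, against 5431 in gate-high cells, and the part of depth in that share was not tested. Of these 36 cells 23 (63.9%) had a Foxp3 UMI and 24 (66.7%) an Il2ra UMI.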

How the results depend on the processing

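No paired analysis was possible because there was 1 mouse per genotype. The share of gate-high cells followed the rule: in the Foxp3eGFP and Lta-/- mice it was 6.26% and 6.39% after thinning to 3000 UMIs, 18.7% and 19.4% with 2 gate UMIs, 5.21% and 4.32% with 5, 9.05% and 9.54% with 2 gate genes, and 14.4% and 14.5% with Mki67 and Top2a not used. Only the gate of 5 UMIs put the Foxp3eGFP mouse higher. The share with a Foxp3 UMI was 39.7% after thinning, 59.0% with 5 gate UMIs and 53.6% with 2 gate genes, and that with an Il2ra UMI 48.1%, 67.5% and 64.5%, and 48.5% with 2 gate UMIs. The count of lower genes against other cells was 859 with Mki67 and Top2a not used, and 848 against other cells without those UMIs, a comparison added after seeing the data.

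Between genotypes, 120 genes were higher and 88 lower after thinning, 140 higher with 5 gate UMIs, 298 lower with Mki67 and Top2a not used, 57 and 58 with a minimum of 100 UMIs, and 560 and 533 with 20. Maf turned from 1.04 to -0.60 with 5 gate UMIs. Against other cells, Igkc turned to 0.42 with 1000 genes and 5% mitochondrial UMIs, 0.39 with 95% of hashtag counts and 0.17 in the Lta-/- mouse alone. Iglc2 turned to 10.4 and Igha to 2.91 with Mki67 and Top2a not used, and Iglc2 to 2.18 in the Lta-/- mouse alone, on 5 UMIs. Nusap1 turned to 0.63 (-1.15 to 2.11) and Knl1 to 0.018 (-1.98 to 1.58) against other cells without Mki67 or Top2a UMIs. Those 2 values rest on 23 and 26 UMIs, under the minimum of 50. The cause of the reversals was not tested. Of 798 values of single genes against other cells, 568 stayed within the main interval, 222 moved and 8 reversed; of 399 between genotypes, 365, 33 and 1 did. Of 238 and 170 values of summed lists, 124 and 39 moved, and 5 and 15 had the opposite sign to a main ratio under 1.5-fold. Against other cells these were T cell receptor signal (0.12 to -0.03 thinned and -0.04 against other cells without Mki67 or Top2a UMIs), dissociation stress (0.03 to -0.02 with 2 gate UMIs and -0.04 in the Foxp3eGFP mouse alone) and effector Treg (0.15 to -0.02 in the Foxp3eGFP mouse alone). Between genotypes, suppressive mediators had the largest such value, 0.18 thinned against -0.26. Depth limits genes under 50 UMIs and shares of cells with a UMI.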
